A study of Homo sapiens with 6 samples.

Results

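The FOS, JUN and EGR genes encode immediate-early transcription factors, and 10 of them were chosen by name: FOS, FOSB, FOSL1, FOSL2, JUN, JUNB, JUND, EGR1, EGR2 and EGR3. Of these, 9 had a probe set annotated to 1 gene symbol, 1 probe set each, among 18417 genes measured that way; the expression of EGR2 was not analysed here. The samples were RL cells, an established human B-cell lymphoma line with the t(14;18) translocation. There were 3 arrays of RL cells given LY317615 for 48 h and 3 arrays of untreated RL cells, which carry 48 h in their titles as well. LY317615 is enzastaurin, an inhibitor of protein kinase C with preference for the beta form. The labels state its dose as 2.5 mM, a unit that could not be checked, and name no vehicle. Total RNA was read on Affymetrix Gene 1.0 ST arrays, which report 1 intensity per probe set and array. All levels below are log2 of the deposited linear intensities.

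FOS-family and JUN-family proteins carry a basic leucine zipper and bind DNA in pairs as the factor AP-1. FOS proteins need a JUN partner, while JUN proteins can also pair with each other. EGR proteins bind DNA through zinc fingers and recognise a GC-rich site. In lymphocytes both kinds of gene are switched on within minutes of antigen-receptor engagement, through protein kinase C, the MAP kinases and the serum response factor SRF with its ELK partners. Most of their RNAs and proteins are short-lived.

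RL cells given LY317615 had less RNA of all 3 JUN genes and of FOS and FOSB. These 5 of 9 genes passed a limma test at an adjusted p of 0.05 (Benjamini-Hochberg over 18417 genes), which 35.7% of all genes passed, 21.4% lower and 14.2% higher. They were 1.29-fold to 1.58-fold lower than in untreated cells. Calls were more frequent among brighter genes. Without the dimmest 30% of genes 6862 of 12892 passed, 4238 lower and 2624 higher, and all 9 genes were left. None of the 5 overlapped between the groups; over all genes LY317615 cells lay below without overlap in 27.8%, above in 22%, and either way in 49.8%. FOSL1, FOSL2, EGR1 and EGR3 did not pass the test. Each of the 5 changes was smaller than 1 on the log2 scale. In RNA from bulk cells, less RNA per cell and fewer cells that express a gene cannot be told apart. JUND did not pass once the arrays were adjusted for trends with brightness.

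The promoters of FOS, JUN and EGR1 are shown because FOS and JUN fell and EGR1 did not pass, and because their windows hold different motifs. Each sequence runs 5′ to 3′ from 250 bases before to 50 bases after a RefSeq start in GRCh38.p14. FOS lies at chr14:75278578-75278877 on the plus strand, JUN at chr1:58783998-58784297 on the minus strand and EGR1 at chr5:138465229-138465528 on the plus strand. Capitals mark, on either strand, the CRE core TGACGT, the JUN-type AP-1 site TGACATCA and the CArG box that SRF binds, and, on the strand shown, the TATA box TATAAA.
FOS: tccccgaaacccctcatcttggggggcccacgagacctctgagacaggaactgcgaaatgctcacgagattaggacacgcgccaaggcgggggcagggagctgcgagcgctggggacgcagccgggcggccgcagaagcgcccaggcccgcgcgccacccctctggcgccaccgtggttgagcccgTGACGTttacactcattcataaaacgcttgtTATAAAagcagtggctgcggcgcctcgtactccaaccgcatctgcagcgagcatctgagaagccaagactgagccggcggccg
JUN: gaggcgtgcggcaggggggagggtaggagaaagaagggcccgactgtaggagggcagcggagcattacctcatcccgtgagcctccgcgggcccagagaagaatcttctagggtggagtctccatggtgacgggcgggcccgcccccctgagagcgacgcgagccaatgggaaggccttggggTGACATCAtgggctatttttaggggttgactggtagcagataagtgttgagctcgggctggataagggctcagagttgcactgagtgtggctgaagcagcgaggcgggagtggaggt
EGR1: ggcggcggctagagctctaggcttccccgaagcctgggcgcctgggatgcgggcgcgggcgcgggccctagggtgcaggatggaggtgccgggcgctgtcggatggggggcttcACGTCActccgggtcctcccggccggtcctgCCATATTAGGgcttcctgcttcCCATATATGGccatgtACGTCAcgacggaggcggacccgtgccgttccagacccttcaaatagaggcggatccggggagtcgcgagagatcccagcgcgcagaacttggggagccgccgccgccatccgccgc

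Of the 10 genes, 8 had at least 1 promoter window in the RefSeq table, 10 windows in all. The EGR1 window held 2 CArG boxes, and 1 of the 3 EGR2 windows held 1. The windows of FOS, FOSB, FOSL2, JUN, JUNB and JUND held 0. Sequence more than 250 bases before a start was not searched. A count of 0 therefore does not mean that a gene lacks a CArG box further upstream. A CArG box was present in 1.3% of all 34796 promoter windows of this length. The CRE core, bound by CREB and ATF proteins, was found in FOS, FOSB, FOSL2, JUND, EGR1 and 1 window of EGR2, against 7.97% of all windows. The JUN window held the JUN-type site TGACATCA, which 2.6% of all windows hold. The AP-1 site TGANTCA was found only in the FOSL2 window among these 10 (7.73% of all windows), and the EGR site GCGTGGGCG in 0 of the 10 (0.793% of all windows). TATA boxes stood in the FOS, FOSB and JUNB windows, against 7.37% of all windows. The full CRE TGACGTCA, which contains the core, stood in the JUND window alone of the 10 (1.84% of all windows). CCAAT was found in the JUN, JUNB and JUND windows (34.6% of all windows), and the GC box GGGCGG in FOS, FOSB, FOSL2, JUN, JUND and 2 windows of EGR2 (44.9% of all windows). All motifs but the TATA box were searched on both strands. These matches describe letters in these windows and were not measured as binding.

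**Figure D1:**
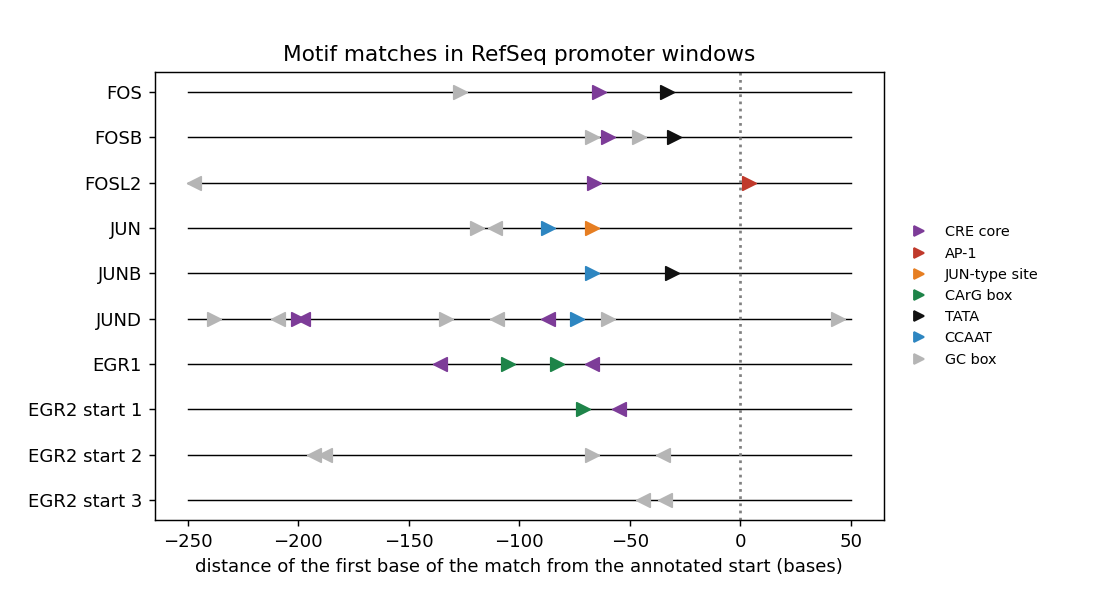
Matches to 7 motifs in the RefSeq promoter windows of 8 genes (3 starts for EGR2), by distance in bases from the annotated start; arrowheads point right for the strand shown and left for the other strand. CArG boxes appear only in the EGR1 window and 1 EGR2 window, and CRE cores in 6 of the 10 windows.

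Of all genes called, 60.1% were lower in LY317615 cells, and 71.4% with the array medians set equal. The median log2 intensity was 5.91 to 5.94 on the LY317615 arrays and 5.83 to 5.86 on the untreated arrays. LY317615 replicate 3 stood apart on the second principal component (-15.81). The other LY317615 arrays lay at 6.29 and 13.74 there, and the untreated arrays at -3.00 to 0.84. On the first component, which split the groups, replicate 3 lay furthest from the untreated arrays (-30.98, against -18.64 and -20.45). Its array weight was the lowest, 0.376 against 1.039 to 1.509 for the other arrays. Results are therefore also given without LY317615 replicate 3 where it matters. Of 7 measured B-cell markers, MS4A1, CD79A, CD79B, PAX5, BLK and CD22 were bright and CR2 was dim. In LY317615 cells 6 of these 7 fell and 0 rose, with a median log2 fold change of -0.48 (-0.25 after cyclic loess, an adjustment for trends with brightness, when 4 fell); CD22 fell by 1.16, MS4A1 by 0.81 and CR2 by 0.52, while CD79B differed by -0.01 (limma adjusted p = 0.911). Over all genes 21.4% fell. Without the dimmest 30% of genes 5 of the 6 markers left fell and 0 rose, while 4238 of the 12892 genes left fell. The B-cell markers thus fell along with the FOS and JUN genes described below. Whether the fall of the markers plays a part in the values of those genes was not tested. The labels do not state that replicates were grown separately, so errors and p-values below rest on array-to-array spread, some of which may be technical, and 3 arrays a group limit the precision.

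Brightness sets how the low genes can be read. No detection calls were used, so 26 genes typical of other cell types and tissues served as a view of dim probe sets; the brightest of them in LY317615 cells, PECAM1, is an endothelial marker that some B cells also carry. Their group means spanned 3.31 to 7.72 in LY317615 cells and 3.25 to 7.18 in untreated cells. The untreated means of JUNB, JUND, JUN, FOSB and FOS lay above that range, and those of EGR1, FOSL1, FOSL2 and EGR3 lay within it. Of these 26 genes, 9 rose (34.6%, against 14.2% of all genes) and 0 fell, with a median log2 fold change of 0.23, against 0.02 over all genes. Only 4 rose after cyclic loess or without LY317615 replicate 3, and 5 without any 1 untreated replicate. Without the dimmest 30% of genes 10 of the 26 were left, of which 6 rose, with a median of 0.34, while 2624 of the 12892 genes left rose. Whether what moved these genes plays a part in the values of EGR1, EGR3, FOSL1 and FOSL2, or of FOS, FOSB and JUN, was not tested.

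In the FOS family, FOS and FOSB fell, and FOSL1 and FOSL2 did not pass. FOS (probe set 7975779), the founding partner of JUN in AP-1, read 6.92, 6.84 and 7.04 on the LY317615 arrays, against 7.32, 7.48 and 7.60 on the untreated arrays. Every LY317615 array was below every untreated one, with a gap of 0.27 between the nearest arrays. The log2 fold change was -0.53 ± 0.10 (SE, limma adjusted p = 0.00311), or 1.44-fold lower.

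FOSB (probe set 8029693), a close relative of FOS that is also cut short by splicing into a longer-lived form, read 7.13, 6.78 and 6.97 in LY317615 cells, against 7.44, 7.51 and 7.70 in untreated cells. These groups did not overlap either, and the spread of the LY317615 arrays was the wider one. FOSB fell by 0.59 on the log2 scale (SE 0.11, limma adjusted p = 0.00347).

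FOSL1 (probe set 7949532), which encodes the FRA1 protein that lacks the strong activation domain of FOS, read 6.51, 6.30 and 6.70 in LY317615 cells and 6.25, 6.08 and 6.37 in untreated cells. Its groups overlapped, since LY317615 replicate 2 lay below untreated replicate 3. The log2 fold change was 0.27 ± 0.12 (SE, limma adjusted p = 0.0943), and 0.37 (adjusted p = 0.0325) without LY317615 replicate 2. FOSL2 (probe set 8041048), which encodes FRA2, read 6.15, 5.82 and 6.01 in LY317615 cells, against 5.98, 6.02 and 6.06 in untreated cells. The LY317615 arrays lay on both sides of the untreated ones, which were close together. FOSL2 differed by -0.03 ± 0.09 (SE, limma adjusted p = 0.848), and by 0.06 without LY317615 replicate 2.

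All 3 genes of the JUN family fell. JUN (probe set 7916609), the partner shared by all FOS proteins and a target of the JNK kinases, read 7.51, 7.62 and 7.28 in LY317615 cells, against 8.05, 8.20 and 8.14 in untreated cells. It had the widest gap of the 9 genes, 0.43 between the nearest arrays, and LY317615 replicate 3 was the lowest. Its log2 fold change of -0.66 ± 0.10 (SE, limma adjusted p = 0.00126) was the largest in size of the 9. It was -0.56 without LY317615 replicate 3.

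JUNB (probe set 8026047), a weaker activator that can restrain JUN and is prominent in some lymphomas, read 8.51, 8.57 and 8.42 in LY317615 cells, against 8.96, 8.94 and 9.08 in untreated cells. Both groups were tight, with SDs of 0.08 and 0.07. JUNB fell by 0.49 (SE 0.08, limma adjusted p = 0.00169), and by 0.30 after cyclic loess.

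JUND (probe set 8035445), the JUN gene that is expressed most steadily in resting cells, read 8.16, 8.32 and 8.31 in LY317615 cells, against 8.75, 8.53 and 8.62 in untreated cells. Its LY317615 arrays all lay below the untreated ones, with a gap of 0.21. The log2 fold change was -0.37 ± 0.09 (SE, limma adjusted p = 0.0113). After cyclic loess it was -0.19 and did not pass (adjusted p = 0.173).

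**Figure D2:**
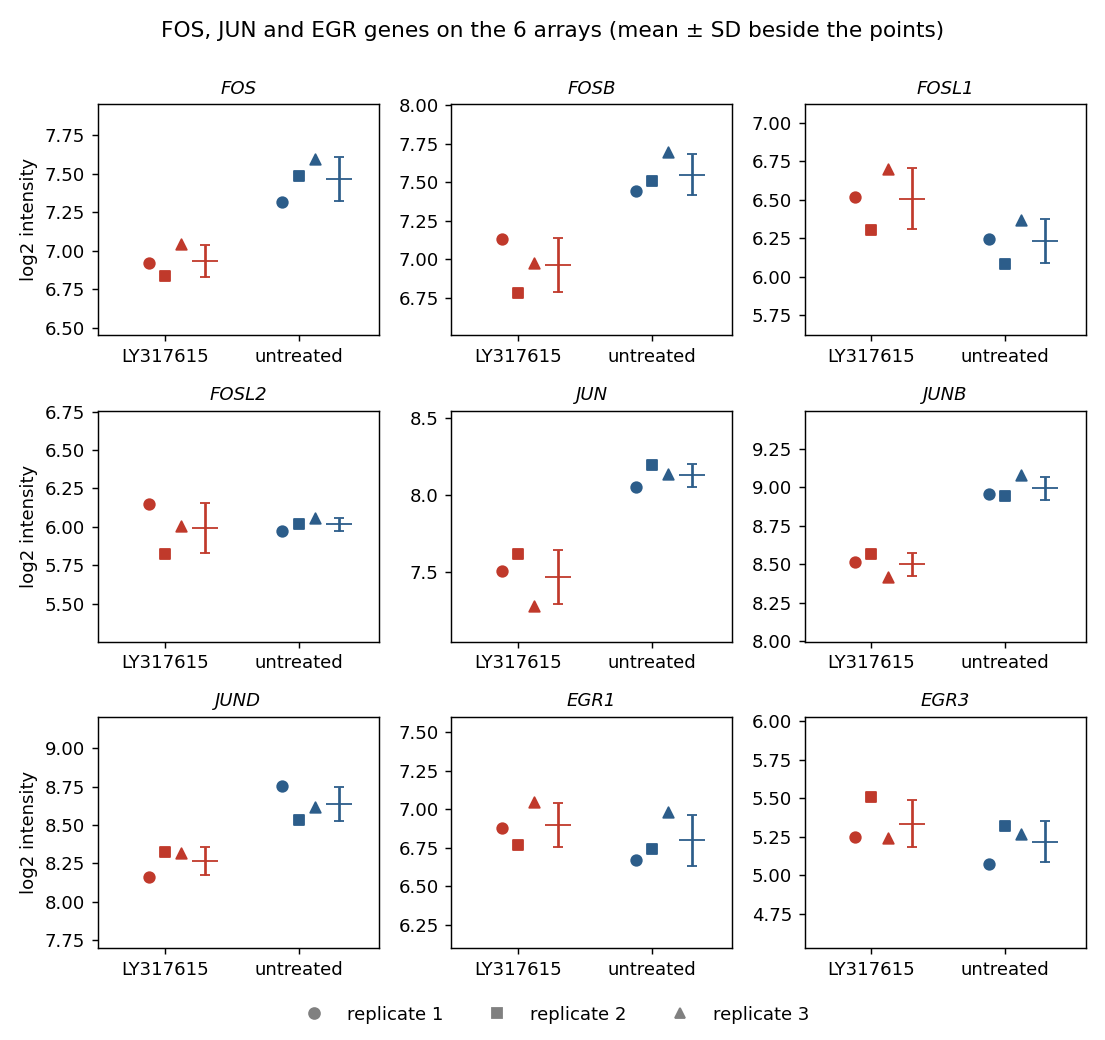
Log2 intensity of the 9 measured genes on each array, LY317615 left and untreated right, one marker per replicate with mean ± SD (n = 3) beside it; every panel spans the same height on the log2 scale. FOS, FOSB, JUN, JUNB and JUND have every LY317615 array below every untreated array, while FOSL1, FOSL2, EGR1 and EGR3 overlap.

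Of the chosen EGR genes, neither EGR1 nor EGR3 passed. EGR1 (probe set 8108370), a zinc finger activator induced with FOS through SRF, read 6.88, 6.77 and 7.05 in LY317615 cells, against 6.67, 6.74 and 6.99 in untreated cells. The groups overlapped, and replicate 3 was the highest in both. Its log2 fold change was 0.10 ± 0.11 (SE, limma adjusted p = 0.502). EGR3 (probe set 8149720), which acts with EGR2 to dampen antigen-receptor responses, read 5.25, 5.51 and 5.25 in LY317615 cells, against 5.07, 5.32 and 5.27 in untreated cells. It was the dimmest of the 9 genes, at the 32.7th percentile of untreated brightness. EGR3 differed by 0.12 ± 0.10 (SE, limma adjusted p = 0.405), and by -0.02 after cyclic loess.

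In all, 5 of 9 measured genes fell and 0 rose, against 21.4% of all genes that fell. Their median log2 fold change was -0.37, against 0.02 over all genes; after cyclic loess it was -0.19, against 0.01. The 5 genes without overlap, all lower, were 55.6% of the 9, against 27.8% of all genes. The sizes of the 5 changes ranked between the 77.1th and 94.5th percentile of absolute change over all genes. Without LY317615 replicate 3 the count was again 5 lower and 0 higher. It was the same without the dimmest 30% of genes, when 4238 of the 12892 genes left fell. After cyclic loess 4 fell, and at an adjusted p of 0.01 also 4.

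**Figure D3:**
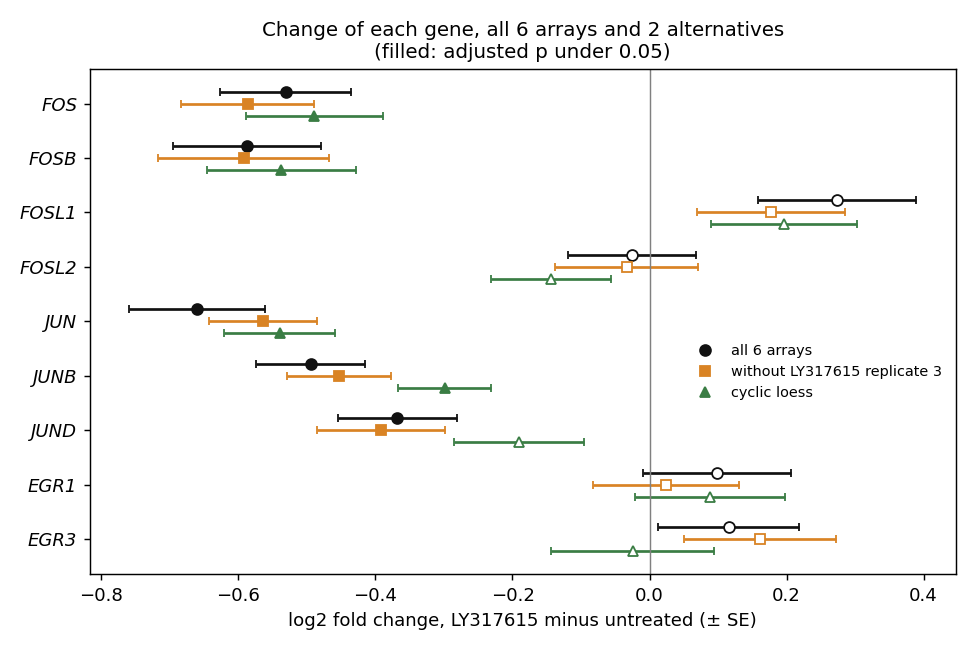
Log2 fold change (LY317615 minus untreated, ± SE) of the 9 genes with all 6 arrays, without LY317615 replicate 3 and after cyclic loess; filled markers passed an adjusted p of 0.05. FOS, FOSB, JUN and JUNB stay filled under all 3, and JUND is open after cyclic loess.

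Differences between pairs of these genes within an array were compared because FOS, JUN and EGR1 are classically induced together. The pairs were chosen after their values were seen, so they restate the values of the single genes on each array and carry no test. The difference between probe sets has no meaning as a level. FOS minus EGR1 was 0.04 ± 0.04 in LY317615 cells and 0.67 ± 0.07 in untreated cells (SD, n = 3 each), a shift of -0.63. The 6 values of FOS minus EGR1 were tight within each group and far apart between them. FOS minus FOSL1 shifted by -0.81 and JUN minus EGR1 by -0.76. JUN minus EGR1 was 0.63, 0.85 and 0.23 on the LY317615 arrays, against 1.38, 1.45 and 1.16 on the untreated arrays. None of the 3 pairs overlapped between groups. FOS and JUN, the first genes of these pairs, did not overlap on their own either, so this count adds no result. The share over other pairs of genes was not computed.

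**Figure D4:**
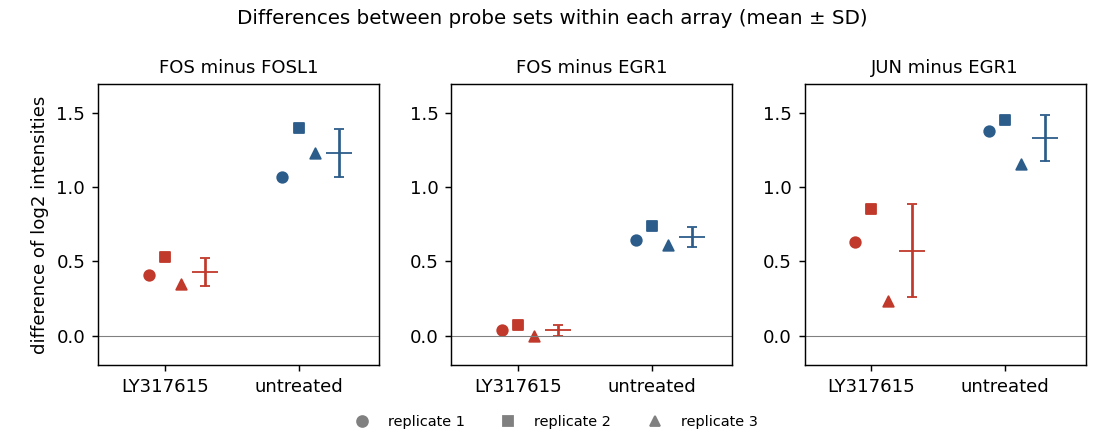
Difference of log2 intensities between 2 genes on each array, LY317615 left and untreated right, with mean ± SD (n = 3). In FOS minus FOSL1, FOS minus EGR1 and JUN minus EGR1 every LY317615 array lies below every untreated array.

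Over the 6 arrays, the genes whose log2 profile was most like that of JUN were USP19 (Pearson r = 0.999), RIOK2 and CENPF (both r = 0.998). USP19 encodes a deubiquitinase, RIOK2 a kinase of ribosome maturation and CENPF a kinetochore protein. The 6 points fall into 2 groups, and 1984 genes had r over 0.95 with JUN, so this likeness is shared by a large part of the array. CENPF fell by 0.86, RIOK2 by 0.54 and USP19 by 0.36 on the log2 scale.

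Other basic leucine zipper genes that pair with FOS or JUN were called about as often as all genes: of 11 measured of 13, 3 fell and 1 rose (36.4%, against 35.7% of all genes), with a median log2 fold change of 0.01. ATF3, a stress-induced repressor that pairs with JUN, read 6.63, 6.66 and 6.36 in LY317615 cells, against 7.30, 7.40 and 7.21 in untreated cells. That is a log2 fold change of -0.75 ± 0.10 (SE, limma adjusted p = 0.000678). The small MAF genes MAFF and MAFG, which have no activation domain of their own, fell by 0.36 and 0.38. MAFG did not pass without untreated replicate 2 (adjusted p = 0.0512) or after cyclic loess (adjusted p = 0.124). BATF, a lymphoid factor that takes the place of FOS beside JUN, rose by 0.32 (limma adjusted p = 0.0298). BATF did not pass without LY317615 replicate 1 or 3 or without untreated replicate 2 or 3 (adjusted p = 0.0668 to 0.106), nor after cyclic loess. The list had 2 called genes without untreated replicate 2. Without the dimmest 30% of genes 3 of 10 fell and 1 rose, while 6862 of the 12892 genes left were called.

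Around the EGR genes, EGR4, the family member known mostly from neurons, read 6.54, 6.37 and 6.94 in LY317615 cells, against 6.37, 6.07 and 6.12 in untreated cells. Its groups met at 6.37, and its rise of 0.43 ± 0.15 (SE, limma adjusted p = 0.0464) was lost without LY317615 replicate 1 or 3, without untreated replicate 2 or 3 (adjusted p = 0.0742 to 0.132) and after cyclic loess (adjusted p = 0.0933). NAB1 and NAB2, corepressors that bind EGR proteins, differed by -0.12 (limma adjusted p = 0.225) and 0.03 (adjusted p = 0.832). NAB2 is itself an EGR target.

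Of the factors that act on immediate-early promoters (SRF, its ternary complex or TCF partners of the ELK family, CREB and MEF2), 7 of 11 measured fell and 0 rose (63.6% called, against 35.7% of all genes, of which 21.4% fell). The median log2 fold change of the list was -0.23, and -0.08 after cyclic loess. Without the dimmest 30% of genes 7 of 11 fell and 1 rose, while 6862 of the 12892 genes left were called. MEF2D, a MADS-box factor that drives JUN in other cells, read 7.93, 7.94 and 7.96 in LY317615 cells, against 8.68, 8.87 and 8.75 in untreated cells, a fall of 0.82 (SE 0.08, limma adjusted p = 0.000133). CREM, a relative of CREB with activating and repressing forms, also fell by 0.82, the CREB coactivator gene CRTC2 by 0.61 and MEF2A by 0.30. SRF itself, a gene outside the naming rule and chosen after its value was seen, fell by 0.28 (limma adjusted p = 0.021). Its value with arrays left out or after cyclic loess is not given here. The largest change upward in the list was 0.37, which did not pass. MEF2A did not pass without untreated replicate 3 (adjusted p = 0.0597) or after cyclic loess (adjusted p = 0.378). The count of 7 became 4 without untreated replicate 2 and 3 without untreated replicate 3; after cyclic loess 3 fell and 1 rose.

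In the MAP kinase cascades, 5 of 15 measured genes fell and 2 rose (46.7% called, against 35.7% of all genes). The median log2 fold change was -0.04, and 0.08 after cyclic loess, when 3 fell and 3 rose. Without the dimmest 30% of genes 5 of 14 fell and 2 rose, while 6862 of the 12892 genes left were called. RPS6KA5 encodes MSK1, a nuclear kinase that phosphorylates CREB and histone H3 at immediate-early genes. It read 6.76, 6.64 and 6.44 in LY317615 cells, against 7.81, 7.89 and 7.75 in untreated cells, 2.30-fold lower (log2 fold change -1.20 ± 0.10, SE; limma adjusted p = 6.83e-05). MAPK8, which encodes the JUN kinase JNK1, fell by 0.73 (SE 0.11). The 2 MEK genes of the ERK pathway moved in opposite directions: MAP2K1 fell by 0.52 (SE 0.08), while MAP2K2 rose by 0.49 (SE 0.08). Of 4 measured genes of JUN and FOS protein turnover, 0 passed in limma, with 0 at an unadjusted p under 0.05; the ubiquitin ligase genes ITCH and FBXW7 differed by -0.11 and -0.10.

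Other immediate-early genes moved both ways. Of 32 measured of 33, 12 fell and 6 rose (56.2% called, against 35.7% of all genes), with a median log2 fold change of -0.09, or -0.24 over the 29 left without the dimmest 30% of genes. Of those 29, 14 fell and 6 rose, while 6862 of the 12892 genes left were called. CD69, an early activation antigen with AP-1 sites in its promoter, read 5.15, 5.60 and 5.09 in LY317615 cells, against 6.67, 6.66 and 6.73 in untreated cells, a fall of 1.41 (SE 0.13, limma adjusted p = 0.000113). MYC, the growth regulator, fell by 1.32 (SE 0.09). RGS2, which limits G-protein signals, fell by 0.94 (SE 0.11). ZFP36L1, which encodes a protein that triggers decay of AU-rich mRNAs, rose by 0.89 (SE 0.10). The counts of the list were 12 lower and 6 higher again after cyclic loess and without LY317615 replicate 3.

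Reported AP-1 targets were called about as often as all genes: of 18 measured, 4 rose and 2 fell (33.3%, against 35.7% of all genes). Their median log2 fold change was 0.14, and 0.03 after cyclic loess. Without the dimmest 30% of genes 8 of the list were left, of which 3 rose and 2 fell, with a median of 0.24. Of the 12892 genes left in all, 6862 were called. CD69 fell, as above, while the plasminogen activator gene PLAU and its receptor gene PLAUR rose by 0.30 and 0.38 and the matrix protease gene MMP9 by 0.42. PLAUR, PLAU and MMP9 were dim, with untreated brightness in percentiles 23.7 to 37.6, and after cyclic loess 0 of the list rose and 2 fell. PLAU did not pass without any 1 of the untreated replicates (adjusted p = 0.0643 to 0.0806), and MMP9 without LY317615 replicate 1 or 3 or untreated replicate 2 or 3 (adjusted p = 0.0899 to 0.101). The 6 calls of the list became 3 without LY317615 replicate 3 or untreated replicate 1, and 2 without untreated replicate 2 or 3.

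Of 15 measured reported EGR targets, 4 fell and 0 rose. That is 26.7%, near the 21.4% of all genes that fell and below the 35.7% called in either direction. Their median log2 fold change was -0.02, and -0.13 after cyclic loess, when 4 fell and 1 rose. The share depended on dim genes. Without the dimmest 30% of genes 5 of 9 fell and 0 rose, with a median of -0.22, while 4238 of the 12892 genes left fell. CBLB, a ubiquitin ligase that restrains antigen-receptor signals, fell by 0.76 (SE 0.09, limma adjusted p = 0.00032) and VEGFA, an angiogenic growth factor gene, by 0.64 (SE 0.09). ID3, an inhibitor of E proteins, fell by 0.38 and did not pass after cyclic loess (adjusted p = 0.0556). TNF, on both target lists, fell by 0.31 (limma adjusted p = 0.0398) and did not pass without LY317615 replicate 3 or any 1 untreated replicate (adjusted p = 0.0666 to 0.121). EGR and AP-1 targets are taken from other cell systems, and which of them these factors bind in RL cells was not measured.

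**Figure D5:**
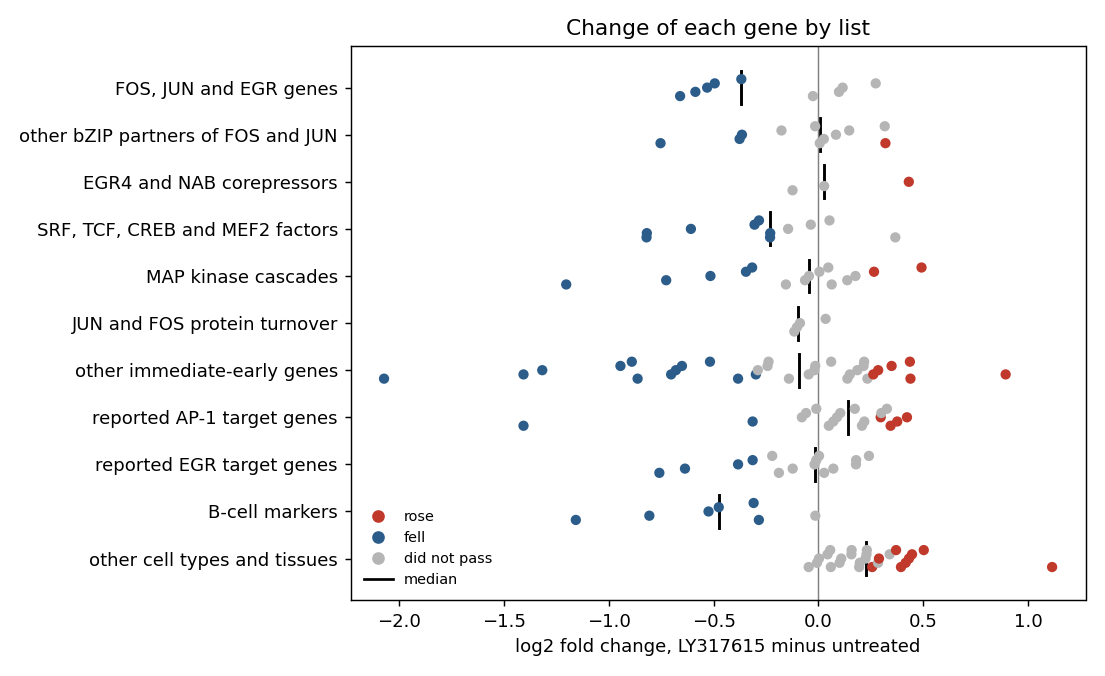
Log2 fold change (LY317615 minus untreated) of each measured gene, 1 row per list, coloured by whether it rose, fell or did not pass an adjusted p of 0.05, with the list's median as a bar. The B-cell markers have the lowest median, -0.48, followed by the FOS, JUN and EGR genes at -0.37 and the SRF, TCF, CREB and MEF2 factors at -0.23; the genes of other cell types and tissues have the highest, 0.23.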

How the data were processed

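Total RNA of 6 RL samples was measured on Affymetrix Gene 1.0 ST arrays. The deposited values are linear intensities of 33297 probe sets. The submitters' processing notes name GCOS 1.4, Affymetrix Expression Console and RMA, with no roles. Since RMA yields log2 values, a conversion back to intensities is implied and unstated. The genome build of the array annotation is not given in the sources used here.

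Log2 was taken with no added constant. Of the probe sets, 19460 had 1 gene symbol, 1754 several and 12083 none in the platform annotation; the brightest single-symbol probe set stood for a gene, leaving 18417 genes. Groups came from the labels. Each gene was tested with limma 3.58.1 in R 4.3.3 (two-sided moderated t, Benjamini-Hochberg over all genes, threshold 0.05). Group errors are SDs over 3 arrays, and errors of fold changes are standard errors of the model. The code was tested on simulated data. Members, gene lists and tests were chosen with earlier results of these data known. All members were named, with MYC; of each list, the 4 called genes of smallest adjusted p, or the 2 of largest change; and the 3 genes most correlated with the member of smallest adjusted p. Motifs were picked after the promoters (RefSeq, GRCh38.p14) were seen. The labels do not say what a shared replicate number means, so the numbers were not taken to pair the samples. Deviations of same-numbered arrays from their group means had correlations of -0.017, 0.093 and 0.066 for replicates 1, 2 and 3. Alternatives were a replicate block, leaving out each array, other variance priors, array weights, equal medians, cyclic loess, a filter on dim genes, averaged or all probe sets, an added constant of 16 and a stricter threshold of 0.01. List members without a single-symbol probe set were not used here. Python 3.11.15, scipy 1.17.1 and matplotlib 3.10.9 made the other tables and figures.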

Additional observations from a re-analysis of the deposited data

How the results depend on the processing

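The falls of FOS, FOSB, JUN and JUNB kept their direction and passed under all 17 alternatives, with log2 fold changes of -0.61 to -0.47 (FOS), -0.67 to -0.50 (FOSB), -0.73 to -0.54 (JUN) and -0.55 to -0.30 (JUNB). JUND ranged from -0.42 to -0.19 and did not pass after cyclic loess (-0.19) or at an adjusted p of 0.01. Leaving out 1 array at a time gave 5 to 6 called members and 4609 to 6153 called genes; the sixth member was FOSL1 without LY317615 replicate 2. An adjusted p of 0.01 left 3586 genes. With the replicate number as a block, which the labels do not explain, 6548 genes and 6 members were called. FOSL1 was among them (0.27, limma adjusted p = 0.0331), and TNF did not pass (adjusted p = 0.0531). Replicates 2 and 3 correlated best with their own number in the other group, and replicate 1 did not. Small differences that did not pass changed sign: FOSL2 to 0.0585 without LY317615 replicate 2 (-0.1036 to 0.0585 over the arrays left out), and after cyclic loess EGR3 to -0.0248, ITCH to 0.0842 and FBXW7 to 0.0187; the cause was not tested. Of the other named genes, the alternatives took 46 calls away and added 0, all of them for genes with a change of less than 0.5. Counts of calls in a list moved by over 1.5 times beyond those given with the lists: reported EGR targets had 7 with array weights, against 4; at an adjusted p of 0.01 the MAP kinase list had 4, against 7, the SRF list 3, against 7, the other bZIP partners 1, against 4, AP-1 targets 1, against 6, and genes of other tissues 3, against 9; with all probe sets the last 2 lists had 2 and 4; genes of other tissues had 5 with equal medians; and the turnover list had 1 after cyclic loess or with averaged probe sets, against 0. EGR4 also missed the threshold with all probe sets and at 0.01. No further probe set of a member could be fitted, since each has 1 with a single symbol. Without detection calls, the brightness of EGR1, EGR3, FOSL1 and FOSL2 limits what can be said of them. The same holds for the LY317615 levels of FOS, FOSB and JUN, which lay within the range of genes of other tissues. Among the genes named from the lists, CD69, CREM, TNF, MAFF, BATF, EGR4, PLAUR, PLAU and MMP9 lay within that range in both groups. ATF3, RPS6KA5, RGS2 and CRTC2 lay within it in LY317615 cells only.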
